A study of Mus musculus with 21 samples.

Results

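The genes described here are 42 that drive or mark cell division: 17 that act in DNA replication or the G1/S step and 25 that act in mitosis and cytokinesis. They were taken by symbol from a list whose rule uses no measured value, though the list was chosen with earlier results of these data known. All 42 were found among the 19096 genes of the deposited gene matrix. The heart samples came from a study that paired 2 insults, diet-induced obesity and renin-driven hypertension, to model, in mice, heart failure in which the ejection fraction is preserved. Male C57BL/6NJ mice, 8 to 10 weeks old when assigned, were fed chow or a diet with 60% of its calories from fat for 10 weeks. Renin was delivered by an adeno-associated viral vector (AAV-Renin) and controls were given its null counterpart, and hearts were taken 6 weeks after the injection. Chow control hearts (chow, null vector) numbered 4, chow renin hearts 6, high-fat control hearts (high-fat diet, null vector) 6 and high-fat renin hearts 5. The sample titles call the null-vector groups "novirus" while the design text says that controls received the null vector, and the promoter that drives renin is not given in the sources used here. Per the design text the groups are of 4 to 6 mice, with 1 library for each.

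Estimated read totals in megareads were 18.7 to 21.4 in chow control, 24.4 to 27.4 in chow renin, 22.8 to 26.2 in high-fat control and 23.2 to 29.3 in high-fat renin libraries. The 8 cardiomyocyte markers were read in every library, with a summed level of 51221 to 72465 CPM (read counts scaled to a common library size). All 42 genes passed the filter on low counts, together with 15216 genes in all. Many were near the lower limit of detection: Bub1 and Aurkb had as few as 8 reads in a library, whereas Pcna never had fewer than 563.

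Dividing cells copy their DNA in S phase and part the copies in mitosis. The E2F factors raise replication genes at the G1/S boundary, and the MuvB complexes with B-Myb or FOXM1 raise mitotic genes later, through promoter elements that include the CHR (cell cycle genes homology region) and CCAAT boxes. Adult mouse cardiomyocytes seldom divide, so in heart tissue these transcripts are thought to come mostly from other cell types. Cardiomyocytes can also enter the cycle under stress without dividing. The cells of origin were not tested here.

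Promoter sequences are shown because the 2 classes of genes carry different elements. A RefSeq table of promoter windows on GRCm38.p6, each 300 bases long with 250 before the start and 50 after it, held 36 of the 42 genes, 15 of replication with 17 windows and 21 of mitosis with 23 windows. Ccna2, Aurkb, Kif20a, Tpx2, Mcm4 and Ccne2 were not matched. Both strands were searched for E2F (TTTCCCGC, TTTGGCGC, TTTCGCGC or TTTGCCGC), CHR (TTTGAA or TTCGAA) and CCAAT. The 250 bases before the start are printed for 5 genes, in the direction of transcription, with every match to these letters or their reverse complement in capitals. Capitals that run on without a break beyond one motif are overlapping matches. The first 3 genes are mitotic and the others act in replication.

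Ube2c (chr2:164769679-164769928, plus strand): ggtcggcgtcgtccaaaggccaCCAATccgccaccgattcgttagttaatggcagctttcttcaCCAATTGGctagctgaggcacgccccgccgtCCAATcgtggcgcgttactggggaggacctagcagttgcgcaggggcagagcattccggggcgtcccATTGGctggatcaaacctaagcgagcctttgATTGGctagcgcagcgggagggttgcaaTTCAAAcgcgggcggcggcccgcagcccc
Cdk1 (chr10:69352913-69353162, minus strand): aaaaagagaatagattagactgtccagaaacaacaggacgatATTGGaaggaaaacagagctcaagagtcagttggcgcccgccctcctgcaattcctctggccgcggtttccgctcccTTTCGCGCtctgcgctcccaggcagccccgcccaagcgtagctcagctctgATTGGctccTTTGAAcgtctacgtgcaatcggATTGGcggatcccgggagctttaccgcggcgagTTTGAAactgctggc
Cenpf (chr1:189688087-189688336, minus strand): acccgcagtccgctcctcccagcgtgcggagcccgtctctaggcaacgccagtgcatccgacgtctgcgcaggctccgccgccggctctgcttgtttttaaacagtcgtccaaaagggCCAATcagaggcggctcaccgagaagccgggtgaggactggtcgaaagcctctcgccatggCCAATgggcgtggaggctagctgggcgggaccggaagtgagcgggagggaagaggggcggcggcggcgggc
Mcm6 (chr1:128359706-128359955, minus strand): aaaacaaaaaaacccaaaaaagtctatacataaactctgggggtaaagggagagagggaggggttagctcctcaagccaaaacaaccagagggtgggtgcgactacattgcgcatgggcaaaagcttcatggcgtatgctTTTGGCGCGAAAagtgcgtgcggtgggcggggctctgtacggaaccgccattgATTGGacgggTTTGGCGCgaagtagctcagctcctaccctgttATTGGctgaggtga
Rrm2 (chr12:24708004-24708253, plus strand): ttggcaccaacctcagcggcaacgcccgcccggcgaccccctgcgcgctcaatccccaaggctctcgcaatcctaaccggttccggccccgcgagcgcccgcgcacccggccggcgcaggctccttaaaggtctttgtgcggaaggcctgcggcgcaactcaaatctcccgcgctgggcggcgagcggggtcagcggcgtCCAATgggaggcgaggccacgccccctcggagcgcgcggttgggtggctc

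A CHR match was present in 82.6% of mitosis windows (19 of 23), in 17.6% of replication windows (3 of 17) and in 19.2% of all 32851 windows of the table. E2F showed the opposite split, with 35.3% of replication windows (6 of 17), 4.35% of mitosis windows (1 of 23, the Cdk1 window) and 2.26% of all windows. CCAAT was found in 70.6% of replication windows, 87.0% of mitosis windows and 37.4% of all windows. Ube2c held 6 CCAAT or ATTGG matches and 1 CHR match, whose first base lay at -29. Cdk1 held an E2F match at -131 and CHR matches at -71 and -15. The CHR match of Cenpf began 2 bases after the start, outside the printed stretch. Mcm6 held 3 E2F matches, of which those at -110 and -106 overlap, and Rrm2 held none. In 2 wider lists, CHR was in 68.9% of the windows of other mitosis genes and E2F in 28.3% of those of other replication genes. A match is a description of letters in a window and says nothing of binding.

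**Figure D1:**
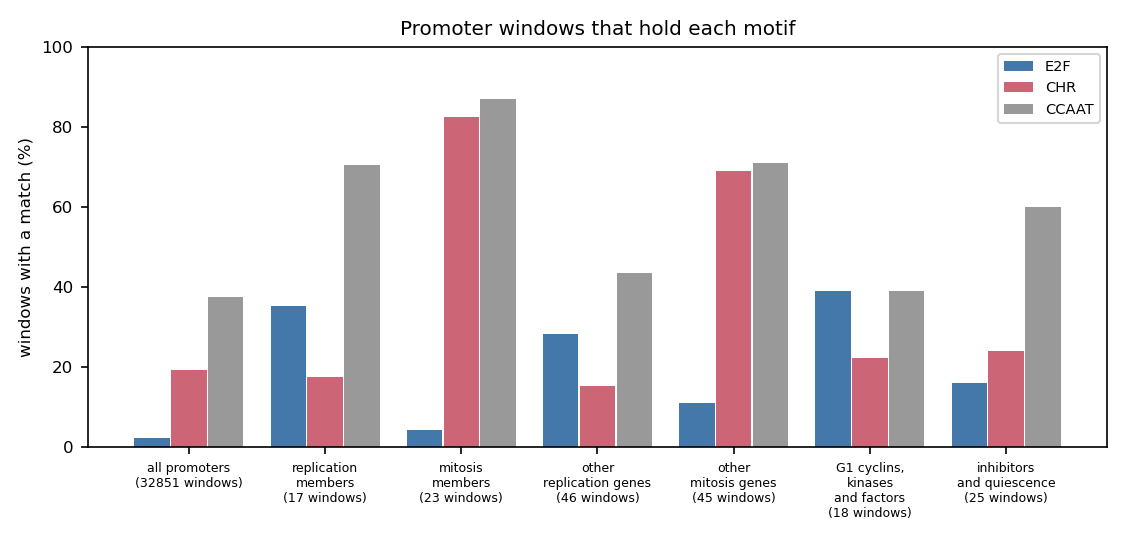
Share of promoter windows (%, vertical axis) that hold at least 1 match to E2F, CHR or CCAAT (bars) in all windows of the table, in the 2 classes of genes described here and in 4 other cell cycle lists (horizontal axis, with the number of windows). CHR reaches 82.6% in mitosis members against 19.2% of all windows, and E2F reaches 35.3% in replication members against 2.26%.

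Between genes, levels were compared as TPM, a transcript share that accounts for length. Pcna, the sliding clamp of DNA polymerases, had the highest mean over all 21 libraries at 22.6 TPM, followed by the helicase subunit Mcm7 at 7.92 TPM and Rrm2, the cycle-limited subunit of ribonucleotide reductase, at 4.80 TPM. In the mitosis class the highest means were 3.31 TPM for Cdk1, the mitotic kinase, 2.90 TPM for Ube2c, the ubiquitin-conjugating enzyme of the anaphase-promoting complex, and 2.22 TPM for Prc1, which bundles the spindle midzone. Kif11, the bipolar spindle motor, was lowest at 0.201 TPM. The 25 mitosis genes together summed to 17.8 to 19.1 TPM per chow control library and to 37.2 to 48.9 TPM per chow renin library. The same sum was 15.0 to 23.7 TPM in high-fat control libraries and 51.8, 33.7, 22.04, 20.99 and 41.4 TPM in high-fat renin libraries 1 to 5.

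Renin on chow was accompanied by higher mitosis and replication transcripts in every heart. Against chow control, 31 of the 42 genes rose (edgeR quasi-likelihood test, Benjamini-Hochberg adjusted p under 0.05 over 15216 genes), and none fell. Of all genes tested, 10.1% rose and 3.36% fell by the same rule. The risers were 20 of 25 mitosis and 11 of 17 replication genes. Median log2 fold changes were 1.15 for mitosis genes and 0.56 for replication genes, beside -0.03 for all genes tested. In bulk tissue, more cells of a type and more RNA per cell cannot be told apart, nor can fewer cells and less RNA per cell.

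Among mitosis genes the largest change was that of Ccnb1, the cyclin that activates Cdk1. Ccnb1 stood at 0.797, 0.9998, 1.30 and 1.16 CPM in chow control libraries 1 to 4 and at 3.28 to 5.49 CPM (median 4.24) in the 6 chow renin libraries. All 6 renin hearts lay above all 4 controls, and the log2 change was 2.0 (standard error 0.27, edgeR adjusted p = 6.09e-06). Ube2c was at 0.747, 0.611, 1.09 and 0.630 CPM in chow control and at 2.37 to 4.00 CPM (median 2.99) in chow renin libraries. Here too the groups did not overlap, and the log2 change was 1.97 (standard error 0.36, edgeR adjusted p = 0.000298). Birc5, the survivin subunit of the chromosomal passenger complex, was at 1.15, 0.611, 0.727 and 0.921 CPM in chow control and at 2.10 to 3.03 CPM (median 2.499) in chow renin libraries. Its log2 change was 1.56 (standard error 0.38, edgeR adjusted p = 0.00541), again with no overlap. Ube2c shares exonic sequence with Tnnc2 on the opposite strand, whose mean was at most 0.148 CPM in any group. Some other risers overlap genes with more reads than their own. Group means were 34.6 to 38.4 CPM for Ufd1, opposite Cdc45, and 28.1 to 30.4 CPM for Cdc23, opposite Kif20a. They were 13.9 to 14.8 CPM for Exosc9, opposite Ccna2, and 11.5 to 13.5 CPM for Elovl1, opposite Cdc20. Strandedness of the libraries is not given in the sources used here.

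The other mitosis genes are given here by their role. At entry, Cdk1 rose by 1.49 (log2, standard error 0.30, edgeR adjusted p = 0.000885), Ccna2, the S and G2 cyclin, by 1.35, and Ccnb2 by 1.11. Of the spindle and kinetochore genes, the checkpoint kinase Bub1 rose by 1.46, the kinetochore motor Cenpe by 1.52, and Tpx2, which nucleates spindle microtubules, by 1.08. Hmmr, a spindle pole protein, rose by 1.36, Cdc20, the activator of the anaphase-promoting complex, by 0.80, and the midzone kinesin Kif20a by 0.90. The mitotic kinases Aurka, Aurkb and Plk1 rose by 0.82, 1.21 and 0.91. Top2a, which untangles sister chromatids, rose by 1.36 and the proliferation antigen Mki67 by 0.95 (edgeR adjusted p = 0.0339). For cytokinesis, Ect2, which switches on RhoA at the cleavage furrow, rose by 1.53 (standard error 0.22, edgeR adjusted p = 1.2e-05), Anln, the furrow scaffold, by 1.36, and Prc1 by 1.15. Bub1b, Nusap1, Kif11 and Kif23 had log2 fold changes of 0.69 to 0.88 that did not pass. Cenpf, a kinetochore protein, had -0.35 (standard error 0.36, edgeR adjusted p = 0.621).

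On chow, 11 of the 17 replication genes rose, and the largest change was that of Rrm2. Rrm2 was at 6.18, 5.61, 5.14 and 5.53 CPM in chow control and at 15.9 to 21.6 CPM (median 18.01) in chow renin libraries. The groups lay far apart, and the log2 change was 1.70 (standard error 0.23, edgeR adjusted p = 1.44e-05). The G1/S cyclin Ccne1 was at 1.15, 1.44, 0.571 and 1.16 CPM against 2.03 to 3.03 CPM (median 2.43), and rose by 1.18 on the log2 scale. Cdc6, which loads the helicase onto origins, was at 0.747, 0.833, 0.934 and 0.727 CPM against 1.23 to 2.41 CPM (median 1.78), and rose by 1.17. Neither gene overlapped between the groups. Of the helicase subunits, Mcm5, Mcm6 and Mcm4 rose by 0.67, 0.58 and 0.56, while Mcm2, Mcm3 and Mcm7 had 0.51, 0.33 and 0.27 and did not pass. Cdc45, the helicase activator, rose by 0.99 (standard error 0.15, edgeR adjusted p = 1.85e-05), the hemimethylated-DNA reader Uhrf1 by 1.06, and the transcription factor E2f1 by 0.93. Pcna and Rrm1 rose by only 0.23 and 0.27, while Tyms and Tk1 (both in thymidylate supply) and Ccne2 had 0.23 to 0.33 and did not pass. Of Tk1 reads, 35.6% were assigned to protein-coding transcripts.

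Across single hearts, 23 to 25 of the 25 mitosis genes and 14 to 17 of the 17 replication genes were above all 4 chow controls in each chow renin library. In comparison, 21.8% to 25.6% of all genes tested were above them in those libraries. For 23 mitosis and 13 replication genes the 6 renin hearts all lay above the 4 controls, which held for 10.4% of all genes tested. Leaving out each of the 10 libraries in turn left 27 to 31 genes called, and 25 of the 31 held their call throughout. Mki67, E2f1, Aurka, Ccnb2, Aurkb and Cdc20 lost theirs in 6, 5, 4, 2, 1 and 1 of the 10 fits. The authors also deposited a table for the group of both insults, and its reference group is not stated. In the authors' deposited table, an adjusted p under 0.05 was given for 16 of the 42 genes, all higher, where 3.81% of its genes were under 0.05 and higher.

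**Figure D2:**
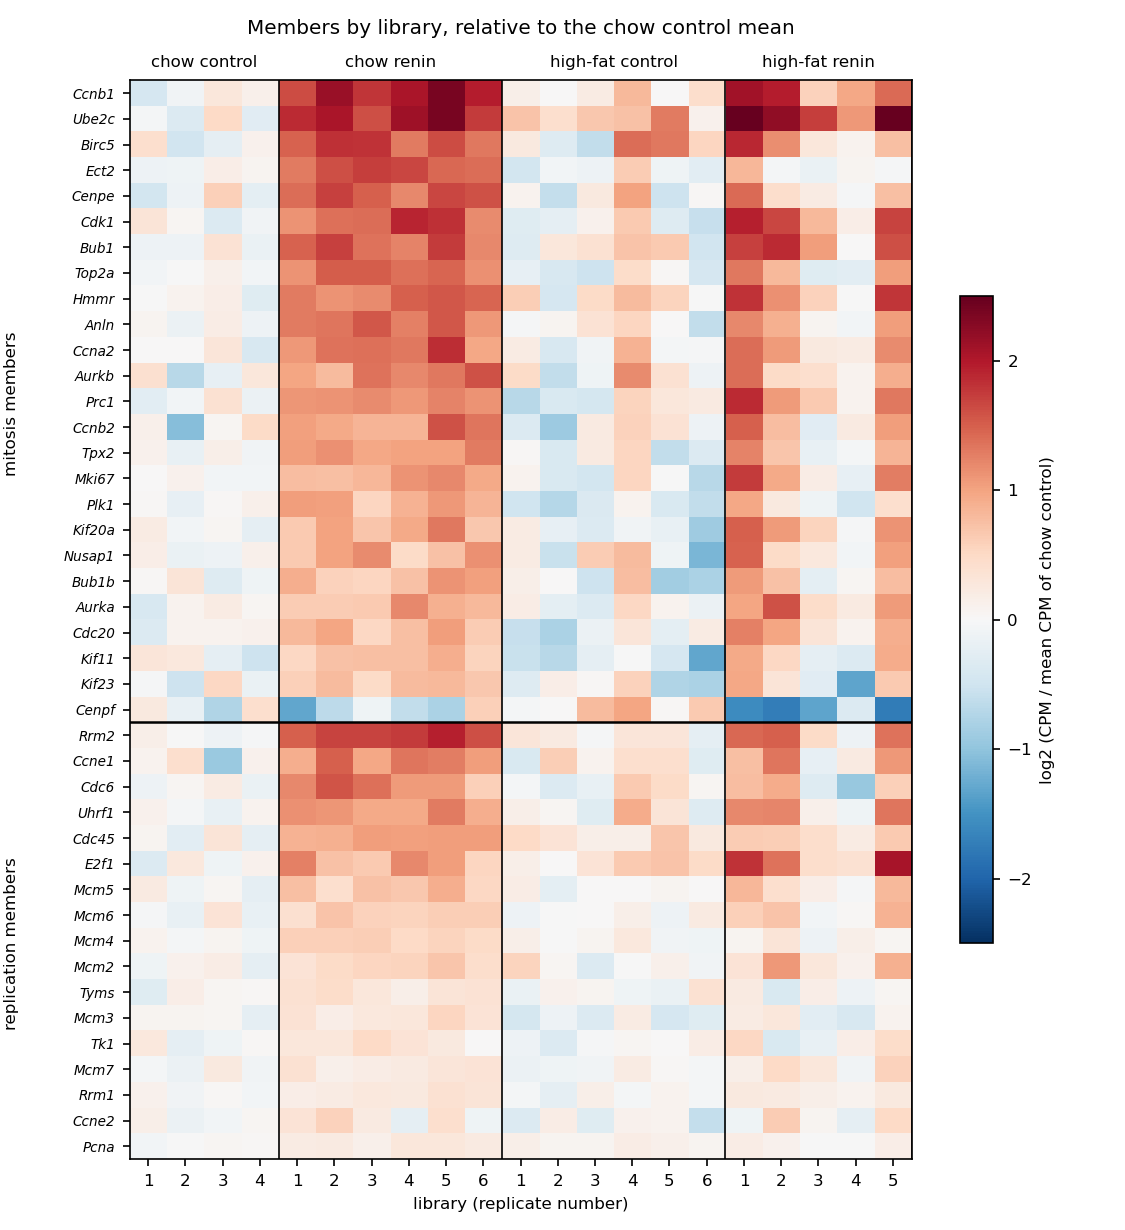
Colour gives log2 of CPM over the chow control mean for each gene (rows; mitosis above the line, replication below it) in each of the 21 libraries (columns, by group and replicate number). The 6 chow renin libraries are red for nearly all rows, high-fat renin libraries 1, 2 and 5 are red while 3 and 4 are pale, and Cenpf is blue in the high-fat renin group.

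Other transcripts moved in the chow renin hearts with these genes. The 10 central neuron markers summed to 192 to 319 CPM there, against 64.6 to 74.2 in chow control, 79.6 to 106 in high-fat control and 63.5 to 106 in high-fat renin libraries. All 10 were called higher in chow renin, and none of the 10 was at 0 in every library of any group. The 8 oligodendrocyte markers summed to 95.2 to 161 CPM in chow renin against 30.2 to 35.1 in chow control. A list of 9 genes of stimulated mesenchymal cells, which an earlier analysis picked from these same libraries, summed to 426 to 508 CPM against 102 to 116. The summed ranges of macrophage, endothelial, fibroblast, T lymphocyte and B lymphocyte markers overlapped between chow renin and chow control. Of these lists 1 gene was called, the macrophage receptor Mrc1, which fell (log2 change -0.47, edgeR adjusted p = 0.0284), while 0 of 8 macrophage and 0 of 8 endothelial genes had a positive change. Of 7 astrocyte genes 3 rose, and of 5 Schwann cell genes tested 2 rose. The cardiomyocyte sum was 55875 to 58610 CPM in chow renin against 60218 to 72465 CPM in chow control, and 51221 to 57818 CPM in high-fat renin against 59131 to 68020 CPM in high-fat control, and its part in the results was not tested. A score of central nervous genes (mean log2 level) was 3.08 to 3.80 in chow renin and 1.30 to 2.20 in the other libraries, so it cannot be told apart from that group. When a score of central nervous genes was added to the fit, 1 of the 42 genes stayed called in edgeR and the median log2 fold changes were 1.88 for mitosis and 0.71 for replication genes. With a score of circadian clock genes as a covariate, 10 stayed called and the medians were 0.67 and 0.35. The clock score was -3.73 to -3.41 in chow control and -3.26 to -2.93 in chow renin libraries. These ranges do not overlap, so the clock score too cannot be told apart from group in this comparison.

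High-fat diet without renin left these genes near the chow level. None of the 42 was called (0.0657% of all genes tested were called in either direction), 1 had an unadjusted p under 0.05, where 1668 of 15216 genes did, and DESeq2 called 0. The 1 gene was Cdc45. Pcna alone had groups that did not overlap, at 33.0 to 36.2 CPM in high-fat control and 30.1 to 32.8 CPM in chow control libraries. Its fold was 1.08 and did not pass. The median log2 fold changes were 0.04 for mitosis genes, 0.05 for replication genes and 0.01 for all genes. Single log2 fold changes ran from -0.47 to 0.70 in mitosis and from -0.22 to 0.41 in replication genes. One heart stood out: in high-fat control library 4, 22 of 25 mitosis genes were above all chow controls, against 0 to 7 in the other 5 libraries of that group. Of all genes tested, 18.6% were above them in library 4 and 20.9% to 32.6% in the others.

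Renin on the high-fat diet was accompanied by higher mitosis transcripts too, in some hearts only. Against high-fat control, 14 mitosis and 7 replication genes rose, where 6.07% of all genes rose, and 1 mitosis gene, Cenpf, fell, where 5.08% of all genes fell (edgeR, adjusted p under 0.05). The median log2 fold changes were 0.75 for mitosis and 0.32 for replication genes, beside -0.01 for all genes. Ube2c was at 7.84, 3.59, 2.55, 1.64 and 5.41 CPM in high-fat renin libraries 1 to 5 and at 0.833 to 1.89 CPM (median 1.25) in the 6 high-fat controls. Libraries 1, 2, 3 and 5 exceeded every high-fat control and library 4 did not, and the log2 change was 1.74 (standard error 0.29, edgeR adjusted p = 0.00137). Cdk1 was at 4.76, 3.98, 2.19, 1.395 and 4.01 CPM against 0.833 to 1.96 CPM (median 1.03). Library 4 again lay within the control range, and the log2 change was 1.43 (standard error 0.27, edgeR adjusted p = 0.00204). Prc1 was at 9.69, 5.60, 4.20, 2.83 and 6.63 CPM against 1.66 to 3.95 CPM (median 2.58), and rose by 1.11 (standard error 0.24, edgeR adjusted p = 0.00572) with library 4 inside the control range. Ccnb1, Kif20a and Cdc20 rose by 1.21, 1.14 and 0.93. No mitosis or replication gene had all 5 high-fat renin hearts above all 6 controls, which held for 1.95% of all genes.

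Of the 17 replication genes, 7 rose on the high-fat diet and 10 did not pass. E2f1 was at 5.52, 4.02, 2.12, 2.06 and 6.59 CPM in high-fat renin libraries 1 to 5 and at 1.58 to 2.56 CPM (median 2.09) in high-fat controls. Libraries 3 and 4 were within the control range, and the log2 change was 0.96 (standard error 0.25, edgeR adjusted p = 0.0166). Rrm2 was at 15.2, 15.9, 7.79, 5.16 and 14.3 CPM against 4.78 to 6.97 CPM (median 6.73), and rose by 0.89 (standard error 0.21, edgeR adjusted p = 0.00955). Mcm2 was at 14.6, 24.2, 14.0, 12.3 and 21.4 CPM against 9.02 to 17.001 CPM (median 11.6), and rose by 0.52, with libraries 2 and 5 alone above the control range. Mcm5, Mcm6, Mcm7 and Rrm1 rose by 0.46, 0.45, 0.32 and 0.20. Pcna and Tyms had log2 fold changes of -0.02 and -0.03.

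Cenpf went the other way from the other mitosis genes. It was at 7.92, 7.15, 9.44, 18.7 and 7.05 CPM in high-fat renin libraries 1 to 5 and at 22.7 to 46.6 CPM (median 30.5) in high-fat controls. Every high-fat renin heart was below every high-fat control, which in this direction held for 1.52% of all genes, and the log2 change was -1.69 (standard error 0.36, edgeR adjusted p = 0.00669). In the chow groups it was at 27.8, 20.8, 14.0 and 31.7 CPM in controls and at 9.54 to 35.6 CPM (median 15.2) in renin hearts, which overlapped. A single transcript, Cenpf-204, took 99.6% of its reads. The call held without each of the 11 libraries in turn, at an edgeR adjusted p of at most 0.0279, and ended with the clock score as a covariate (log2 fold change -1.11, edgeR adjusted p = 0.443).

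The count in the high-fat renin hearts rested most on libraries 1, 2 and 5. Mitosis genes above all chow controls numbered 24, 21, 12, 3 and 23 of 25 in libraries 1 to 5, and replication genes 14, 15, 7, 2 and 15 of 17. Of all genes tested, 31.1%, 28.1%, 22.4%, 21.7% and 28.1% were above all chow controls in those libraries. Without high-fat renin library 1, 2 or 5, 9, 11 or 10 genes were called against high-fat control instead of 22. Without high-fat control library 2, 3, 5 or 6 the count was 13, 14, 14 or 14. The 9 genes that held their call in all 11 such fits were Ube2c, Cdk1, Ccnb1, Kif20a, Prc1, Cdc20, Aurka, Rrm2 and Cenpf. The 9 clock genes that peak by day summed to 545, 570, 688, 665 and 571 CPM in high-fat renin libraries 1 to 5, so the 3 libraries with the most cell cycle transcripts had the lowest sums. In the same order the cardiomyocyte sum was 51989, 51221, 56636, 57818 and 53032 CPM, lowest in libraries 1, 2 and 5, and the endothelial sum was 931, 909, 767, 827 and 956 CPM, highest in them. The 6 atrial markers summed to 1014.5, 709, 825, 141.3 and 591 CPM, lowest in library 4, against 66.9 to 828 CPM in high-fat control libraries. Mitochondrial genes took 29.8%, 35.2%, 33.7%, 35.5% and 33.6% of reads, against 33.7% to 38.2% in high-fat control libraries. The part of the cardiomyocyte, endothelial, atrial and mitochondrial values in the result was not tested. The clock sum was 703 to 783 CPM in high-fat control, 736 to 851 CPM in chow control and 613 to 699 CPM in chow renin libraries. With the clock score as a covariate 0 of the 42 genes stayed called against high-fat control, and the medians were 0.24 for mitosis and 0.19 for replication genes. With the central nervous score 10 stayed called, with medians of 0.63 and 0.34. When the fit used the libraries of the 2 groups alone, 6 were called.

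**Figure D3:**
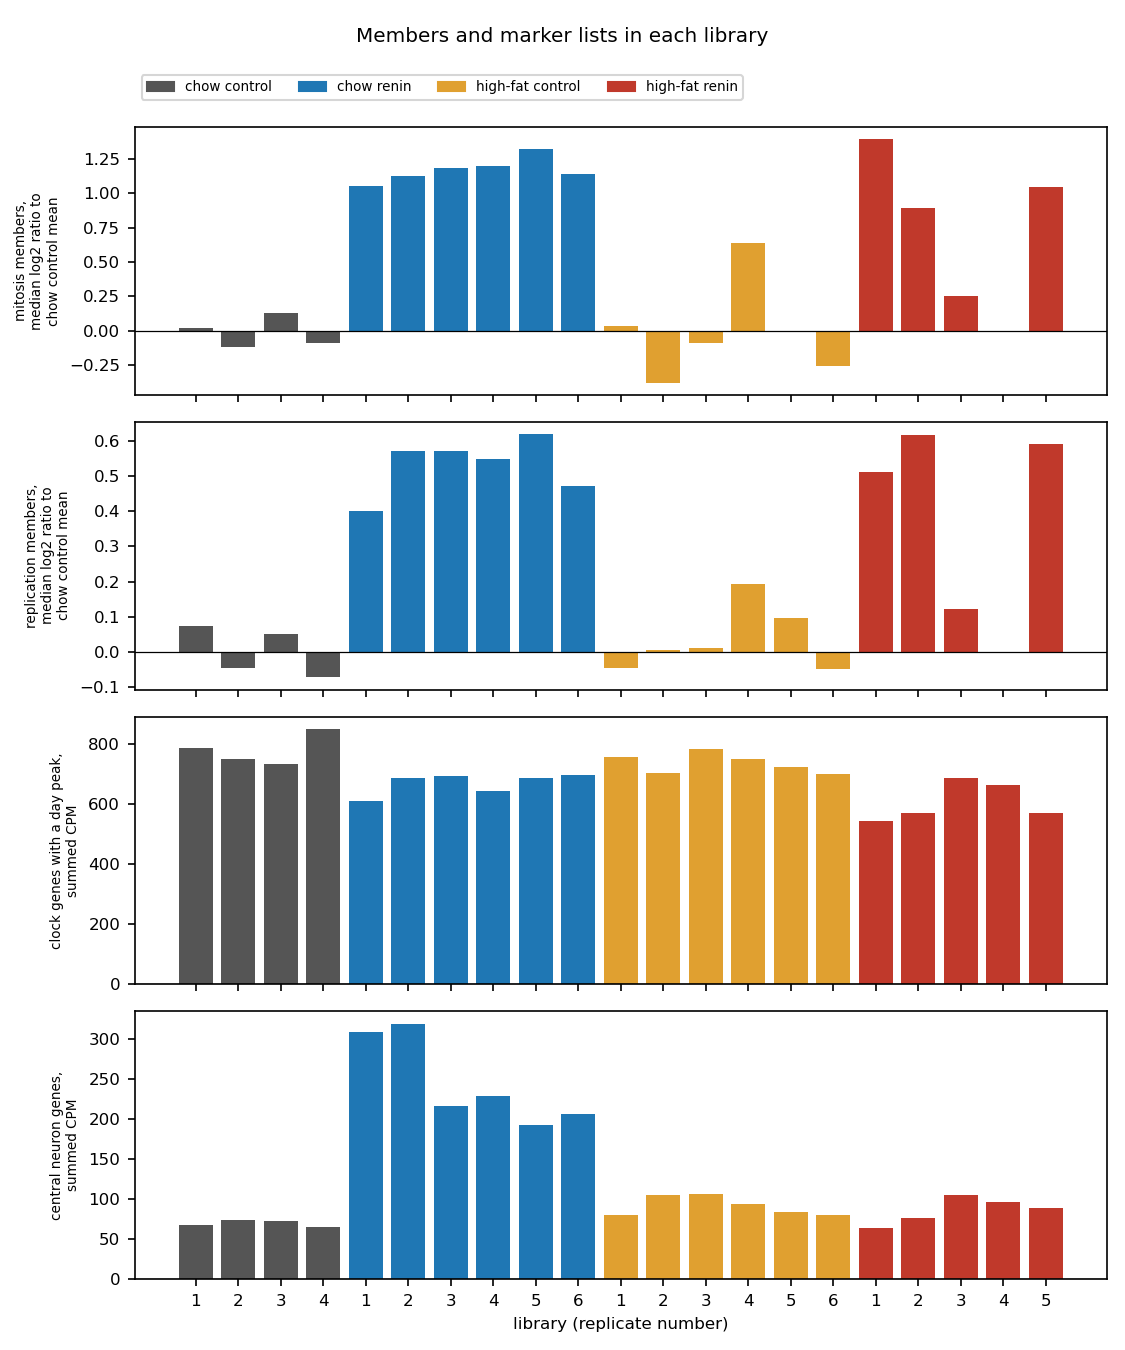
Bars give, for each of the 21 libraries (horizontal axis, coloured by group), the median log2 ratio of the mitosis and of the replication genes to the chow control mean, and the summed CPM of the day-peak clock genes and of the central neuron genes. High-fat renin libraries 1, 2 and 5 have mitosis medians of 1.39, 0.89 and 1.05 and the lowest clock sums of their group, and the central neuron sum is highest in the chow renin group.

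**Figure D4:**
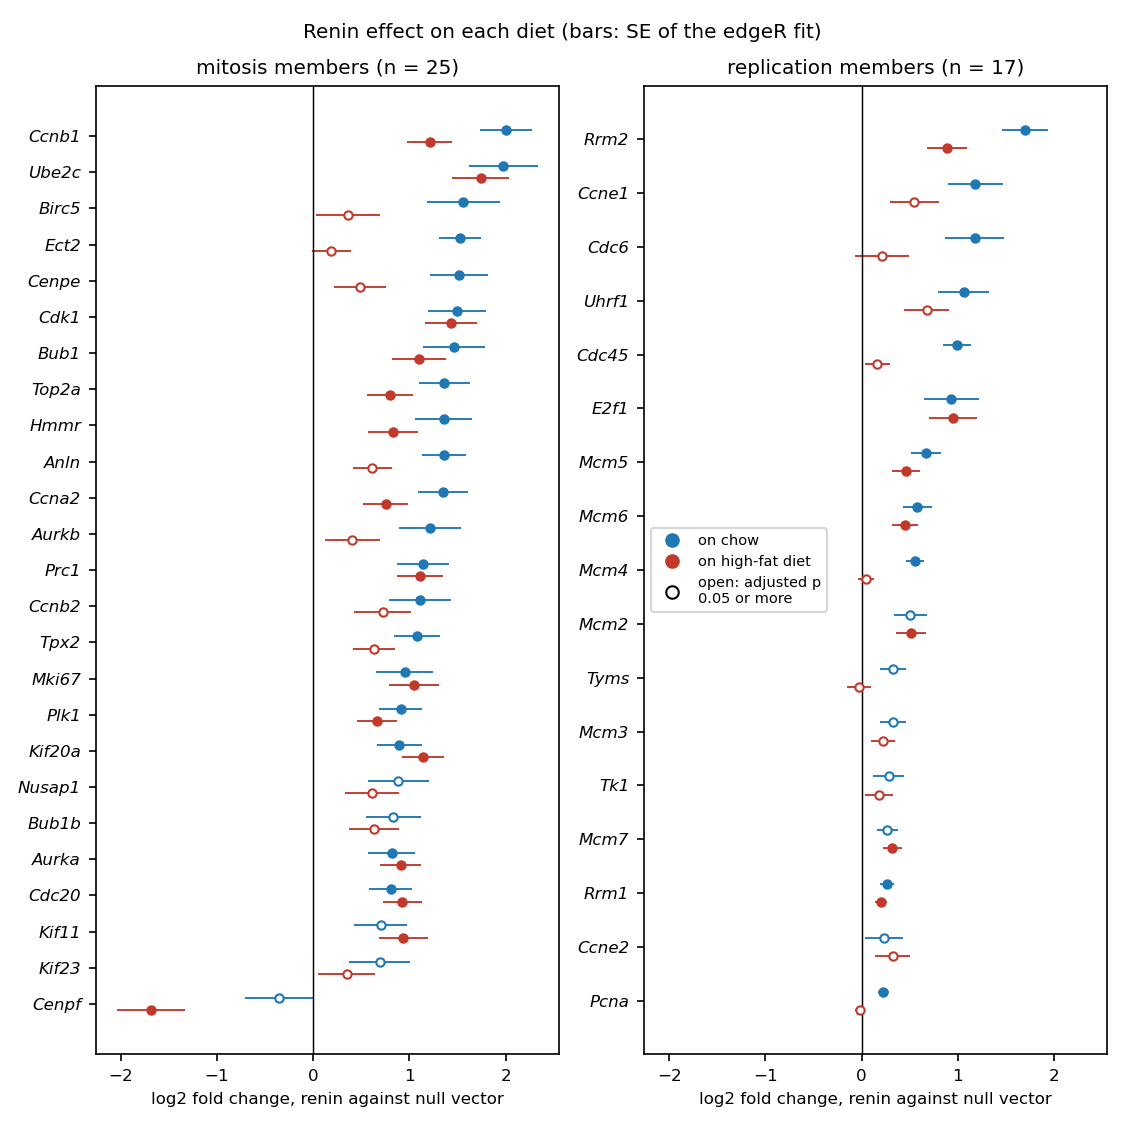
Points give the log2 fold change of renin against null vector on chow (blue) and on the high-fat diet (red) for each mitosis (left) and replication gene (right), and bars the SE of the edgeR fit. Filled points passed at an adjusted p under 0.05, which 20 mitosis genes did on chow and 14 did upward on the high-fat diet, where Cenpf lies at -1.69.

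The renin effects on the 2 diets use different libraries, so their calls can be set side by side. Of the mitosis genes higher on chow, 65.0% (13 of 20) were also higher on the high-fat diet, and these made up 92.9% of the 14 called there. Of all genes tested, 0.756% were higher on both diets, which was 7.48% of those higher on chow and 12.5% of those higher on the high-fat diet. Of the replication genes, 5 were higher on both, 45.5% of the 11 on chow and 71.4% of the 7 on the high-fat diet. Those 5 were E2f1, Mcm5, Mcm6, Rrm1 and Rrm2. On the high-fat diet Rrm2 alone of the 5 held its call in all 11 fits that left out a library. E2f1, Mcm5, Mcm6 and Rrm1 lost theirs in 2, 8, 7 and 7 of them. Of the 13 mitosis genes higher on both, Top2a, Plk1, Ccna2, Hmmr, Mki67 and Bub1 lost their high-fat call in 8, 8, 7, 7, 2 and 2 of the 11 fits. On chow, Mki67, Aurka and Cdc20 lost theirs in 6, 4 and 1 of 10 fits. Mitosis genes called higher on chow alone were Anln, Aurkb, Birc5, Ccnb2, Cenpe, Ect2 and Tpx2, and Kif11 was called on the high-fat diet alone. A call on 1 diet alone is not a tested difference.

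The test of the difference between the renin effects found 4 of the 42 genes (edgeR interaction, adjusted p under 0.05), all with the smaller effect on the high-fat diet. Of all genes tested, 7.3% had a lower interaction and 3.14% a higher one, so the count is near that of genes in general. Ect2 was at 1.096, 1.11, 1.35 and 1.26 CPM in chow control and at 2.98 to 3.99 CPM (median 3.47) in chow renin libraries. It was at 0.872 to 1.88 CPM (median 1.12) in high-fat control and at 2.15, 1.16, 1.08, 1.26 and 1.19 CPM in high-fat renin libraries. Chow renin stood alone above the other 3 groups, and the interaction was -1.34 (log2, standard error 0.30, edgeR adjusted p = 0.00339). Cdc45 was at 2.44, 1.94, 2.91 and 1.99 CPM in chow control, at 4.23 to 4.81 CPM (median 4.76) in chow renin and at 2.56 to 3.73 CPM (median 2.85) in high-fat control libraries. In high-fat renin libraries it was at 3.62, 3.56, 3.16, 2.69 and 3.63 CPM, within the range of the high-fat controls, and the interaction was -0.82 (standard error 0.20, edgeR adjusted p = 0.00621). Mcm4 was at 8.72, 8.00, 8.62 and 7.66 CPM in chow control and 11.4 to 12.6 CPM (median 12.3) in chow renin libraries. On the high-fat diet it was at 7.67 to 9.90 CPM (median 8.43) in controls and 8.60, 10.3, 7.57, 9.14 and 8.58 CPM with renin. Only the chow groups were apart, and the interaction was -0.51 (standard error 0.12, edgeR adjusted p = 0.00685). Pcna had -0.25 (standard error 0.07, edgeR adjusted p = 0.035) and lost its call in 7 of 21 fits that left out a library, where the adjusted p reached 0.0824. No call held once the central nervous score entered the fit, where the interactions of Ect2, Cdc45 and Mcm4 were -1.74, -1.47 and -0.47. With the clock score instead, 6 genes were called, and Ect2, Cdc45, Mcm4 and Pcna kept their calls at -1.36, -0.81, -0.51 and -0.24.

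**Figure D5:**
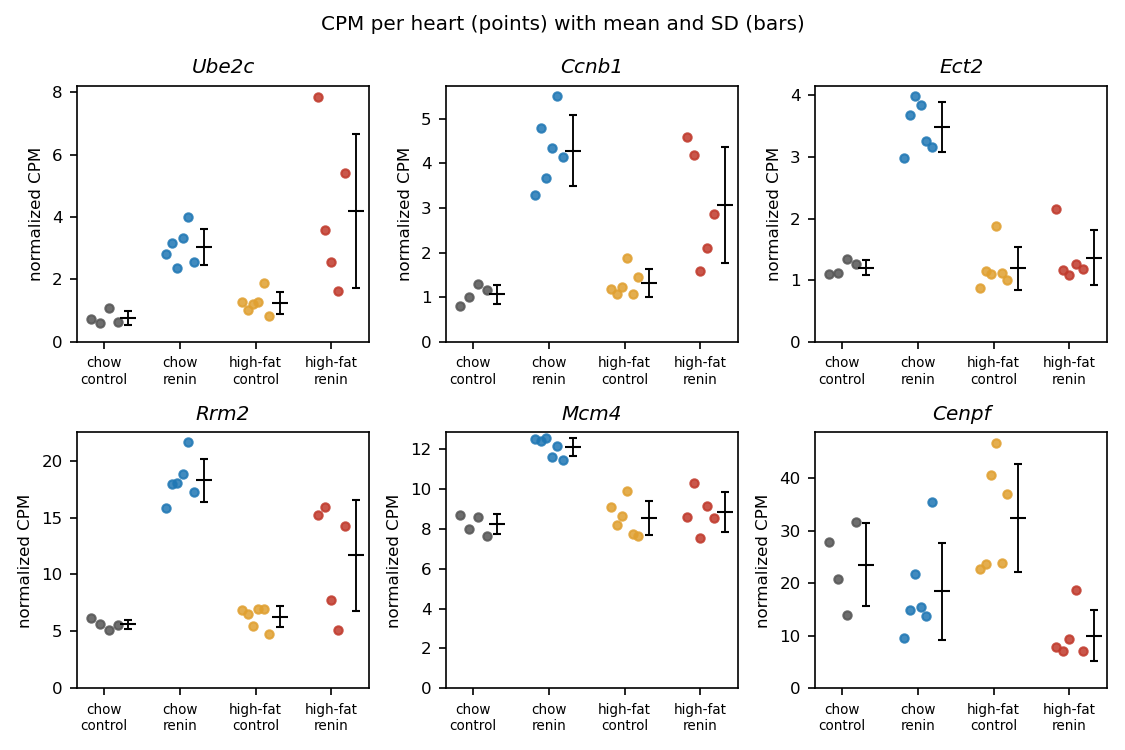
Each point is the CPM of 1 heart (vertical axis) for Ube2c, Ccnb1, Ect2, Rrm2, Mcm4 and Cenpf in the 4 groups (horizontal axis), with the group mean and SD as bars. Ect2 and Mcm4 are high in chow renin only, Ube2c reaches 7.84 in a high-fat renin heart, and Cenpf is lowest in high-fat renin.

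The 2 renin groups were also set against each other directly. With renin, 9 genes were lower on the high-fat diet than on chow, 5 of mitosis and 4 of replication (edgeR, adjusted p under 0.05), where 12.8% of all genes were lower, and none was higher, where 9.8% of all genes were higher. Median log2 fold changes were -0.35 for mitosis and -0.19 for replication genes, beside 0.02 for all genes. Ect2 had -1.36 (standard error 0.19, edgeR adjusted p = 1.22e-05), Cenpe -0.88 and Top2a -0.70, while Cdc6 had -0.82, Rrm2 -0.65, Cdc45 -0.47 and Mcm4 -0.46 (edgeR adjusted p = 0.0002). Cenpe was at 2.37 to 3.36 CPM (median 3.01) in chow renin and at 2.74, 1.39, 1.18, 1.01 and 1.74 CPM in high-fat renin libraries, where library 1 overlapped. Ect2, Mcm4 and Cdc45 did not overlap, which held in this direction for 9.78% of all genes, so these 3 of 42 are no more than that share. Ube2c and E2f1 had positive values of 0.46 and 0.43 that did not pass. Without high-fat renin library 1 the count was 15, and without library 3 it was 5. Ect2, Cenpe, Mcm4 and Cdc45 held their call without each of the 11 libraries in turn, while Top2a, Cdc6, Plk1, Anln and Rrm2 lost theirs in 7, 4, 3, 2 and 1 of the fits. Once the central nervous score entered the fit, 0 genes were called, while the medians were -1.03 for mitosis and -0.42 for replication genes and Ect2 had -1.68 (edgeR adjusted p = 0.752). The clock score in its place left 13 genes called, with Ect2 at -1.49 (edgeR adjusted p = 1.49e-05). Marker lists also differed between the renin groups. All 9 stimulated mesenchymal genes were lower on the high-fat diet, with sums of 92.4 to 102 CPM against 426 to 508 CPM on chow. Of 8 cardiomyocyte genes 4 were lower and 1 higher, and of 8 endothelial genes 3 were higher and 0 lower. The part of these lists in the result was not tested.

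Hearts with both insults were set against chow control, which also serves the chow renin comparison. Here 10 mitosis and 5 replication genes rose (edgeR, adjusted p under 0.05), where 4.05% of all genes rose, and none fell, where 4.25% of all genes fell. The median log2 fold changes were 0.76 and 0.36, beside 0.01 for all genes. Ube2c rose by 2.44 (standard error 0.37, edgeR adjusted p = 0.000503), Ccnb1 by 1.51 and Cdk1 by 1.39. Of the replication genes E2f1 rose by 1.37 (standard error 0.30, edgeR adjusted p = 0.00604), Rrm2 by 1.05, Uhrf1 by 0.88, Mcm2 by 0.59 and Cdc45 by 0.52. Uhrf1 was at 5.56, 5.64, 2.62, 2.23 and 6.10 CPM in high-fat renin libraries 1 to 5 and at 2.59, 2.33, 2.13 and 2.57 CPM in chow control, so libraries 1, 2 and 5 were high and library 4 lay inside the control range. Only E2f1, Ccnb1, Aurka and Ube2c had all 5 hearts above all 4 controls, beside 4.98% of all genes. The count was 8, 7 or 5 without chow control library 1, 2 or 4, and 7, 9 or 7 without high-fat renin library 1, 2 or 5. The 5 genes that held their call in all 9 such fits were Ube2c, Ccnb1, Cdk1, Rrm2 and E2f1. The count was 0 with the clock score as a covariate, where the medians were 0.15 for mitosis and 0.14 for replication genes. The clock score was -3.25 to -2.21 in high-fat renin and -3.73 to -3.41 in chow control libraries, so it cannot be told apart from group here. With the central nervous score the count was 18 and the medians were 0.85 and 0.39. It was 3 when the fit used the libraries of the 2 groups alone.

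Other genes of the cycle were counted from 4 lists, to be read beside the shares of all genes tested, 10.1% higher and 3.36% lower for renin on chow and 6.07% and 5.08% on the high-fat diet. Of 50 other mitosis genes, 30 were higher and 1 lower with renin on chow, and 15 were higher and 1 lower with renin on the high-fat diet. The median log2 changes were 0.96 and 0.61. The gene that fell in both was Pttg1, securin, with log2 fold changes of -0.22 and -0.38. Cenpm, a centromere protein, and Cdca3, which triggers Wee1 destruction, rose by 2.27 and 1.68 on chow. Of 49 other replication genes tested, 7 rose and 1 fell on chow, led by Clspn, the replication checkpoint adaptor, at 1.48, and 6 rose on the high-fat diet. The medians of that list were 0.19 and 0.12. Of 16 G1 regulators, 3 rose on chow: Foxm1, a driver of mitotic genes, by 1.31, Myc by 1.2, and Skp2, which targets p27 for destruction, by 0.84. On the high-fat diet 3 rose and 1 fell: the D-type cyclin Ccnd2 rose by 0.68, E2f3 by 0.45 and Tfdp1 by 0.20, while Cdk2 had -0.25.

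Among 27 inhibitors and quiescence genes, 4 rose and 2 fell on chow, with a median log2 change of -0.06. Cdkn2a, which encodes p16 and ARF, was at 1.096, 1.78, 0.675 and 0.921 CPM in chow control and at 4.83 to 6.35 CPM in chow renin libraries. It was at 1.03 to 1.58 CPM in high-fat control and at 1.31, 1.39, 1.15, 1.15 and 1.19 CPM in high-fat renin libraries, so only chow renin stood apart. Its log2 fold change on chow was 2.33 (standard error 0.20, edgeR adjusted p = 1e-08) and the interaction was -2.40 (edgeR adjusted p = 1.38e-06). Myc had an interaction of -1.1 (edgeR adjusted p = 1.31e-05). Cdkn1a, which encodes p21, was at 43.8, 27.3, 17.9, 17.5 and 29.8 CPM in high-fat renin libraries 1 to 5 and at 9.55 to 14.7 CPM in chow control. It rose by 1.13 there (edgeR adjusted p = 0.0262), and on chow it had 0.85 (edgeR adjusted p = 0.0615). In high-fat control libraries it was at 9.08 to 20.2 CPM, a range that holds high-fat renin libraries 3 and 4, and it did not pass against them (0.78, edgeR adjusted p = 0.0573). Of the 27 genes, 3 rose (Lin54, Ccng1 and E2f6) and Cdkn1c fell for renin on the high-fat diet.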

How the data were processed

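RNA from 21 hearts was sequenced. Per the submitters' processing notes the tools were Salmon 1.10.2 and DESeq2 1.40.2 and the build GRCm38 (mm10). Per the file headers, the authors deposited estimated counts and TPM per transcript for each library, a gene matrix of signal values, which were normalized by the authors, and a comparison table with log2 fold changes and adjusted p-values. Estimated counts were summed over the transcripts of a gene and rounded; 116772 of 119215 transcripts (97.95%) matched the annotation, and 0.854% to 0.925% of reads did not. A symbol shared by genes was kept for the gene with most reads. TPM was used for levels between genes, and CPM was normalized by TMM factors. Genes were filtered with filterByExpr (minimum count 10) and tested in edgeR 4.0.16 (R 4.3.3) with 1 fit of the 4 groups and Benjamini-Hochberg adjustment, called under 0.05. DESeq2 1.42.0 and limma 3.58.1 (pseudocount 0.1 for TPM) served as alternatives; the scripts were tested on simulated data. Clock and central nervous scores were each added as a covariate. The members and lists were chosen with earlier results of these data known. Named genes were the 3 of highest mean TPM in each class and the 3 largest called changes of each class in each comparison; other genes are added by role, after their values were seen. Reads of genes that overlap on the opposite strand (Ccna2, Kif20a, Nusap1, Prc1, Ube2c, Cdc20, Mcm7, Tk1, Cdc45, Ccne2), or that have named pseudogenes (Ccnb1, Ccnb2, Pcna, Tyms), are less certain. Other alternatives were upper-quartile factors, no filter, libraries thinned to the smallest total and each library left out in turn.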

Additional observations from a re-analysis of the deposited data

Results flagged for a closer look

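In 76 sets of hearts (19 named genes in 4 groups), 3 libraries stood apart from the others of their group. Chance alone sets apart about 1 in 20 such sets, so these 3 are no more than that rate would give. Cenpf was at 18.7 CPM in high-fat renin library 4, where the others were at 7.05 to 9.44 CPM. Ect2 was at 1.88 CPM in high-fat control library 4, where the others were at 0.872 to 1.15 CPM, and at 2.15 CPM in high-fat renin library 1, where the others were at 1.08 to 1.26 CPM.

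The renin effect differed between diets by the edgeR interaction for 4 genes, with log2 values of -1.34 for Ect2, -0.82 for Cdc45, -0.51 for Mcm4 and -0.25 for Pcna. Each was smaller on the high-fat diet, beside 7.3% of all genes with a lower interaction, a share close to that of these 4 among the 42. None stayed called once the central nervous score entered the fit, where the values were -1.74, -1.47, -0.47 and -0.47.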

How the results depend on the processing

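None of the 46 calls of named genes reversed under the alternatives run. Leaving out each library in turn gave 27 to 31 called genes for chow renin against chow control, 0 to 0 for high-fat control against chow control, 5 to 22 for high-fat renin against chow control, 9 to 26 for high-fat renin against high-fat control, 5 to 15 between the renin groups and 3 to 6 for the interaction. With the clock score as a covariate the counts were 10 for chow renin and 0 for high-fat renin against either control. They were 13 between the renin groups and 6 for the interaction. The clock score did not overlap between chow control and either renin group, so there it cannot be told apart from group. With the central nervous score the counts were 1 for chow renin, 10 for renin on the high-fat diet and 18 for both insults against chow control. They were 0 between the renin groups and for the interaction. Fits on the libraries of the compared groups alone gave 3 against chow control and 6 against high-fat control for high-fat renin. limma on log2(TPM + 0.1) gave 9 against chow control, and limma on the deposited gene signal, an alternative chosen after seeing the data, gave 9 and 13. Protein-coding transcripts alone, added likewise, kept 41 of the 46 calls. On the TPM scale the median log2 change of all genes for renin was 0.09 (chow) and 0.12 (high-fat), against -0.03 and -0.01 from counts. DESeq2 kept all 46 calls of the named genes. The cause of these shifts was not tested.

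Replicate numbers do not pair the hearts: 28 same-number pairs had correlations of deviations from -0.226 to 0.421 (median 0.0775), 11 were over 0.1, and 7 of 21 libraries correlated best with their own number. With the replicate block, 14 genes were called for high-fat renin against high-fat control in place of 22. Low counts limit the smallest genes: Bub1 and Aurkb had as few as 8 reads.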
